A study of Mus musculus with 13 samples.

Results

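The genes described here encode the cytosolic factors that start and extend protein synthesis: the eukaryotic initiation factors (eIFs), the elongation factors (eEFs) and the kinases, binding proteins and methyltransferases named after them. Members were all genes of the count table whose mouse symbol begins with Eif1 to Eif6, Eef1 or Eef2, leaving out names ending in -ps, the mark of a pseudogene. The rule took 64 of 27071 features, and 3 -ps names were left out. Each of the 64 had a count in at least 1 library.

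The study asked which RNAs are held by dAKAP1, a scaffold protein of the outer mitochondrial membrane. Purified protein with the KH and Tudor domains of dAKAP1, named KHT, was incubated with RNA extracted from the mouse Leydig cell line MA-10 and pulled down through its MBP tag with antiMBP beads. KHT had 4 libraries and the input RNA (IPT, untreated) had 4. The negative control pull-downs (NEG) had 5, made with empty antiMBP beads, MBP alone or the bait KHT(GDDG), and the labels do not say which control each library was. NEG 2 held no counts, so NEG 1, 3, 4 and 5 were used. All groups share the cell line, its RPMI medium with horse serum, Trizol extraction and a stranded total RNA kit with ribosomal RNA depletion. The bait met purified RNA in solution, and not RNA in cells. The sources do not say whether libraries of a group came from separate cultures, so p-values measure only the spread between these libraries, which may be technical.

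In initiation, eIF2 brings the initiator tRNA to the small ribosomal subunit, eIF1 and eIF1A help it scan for a start codon, eIF3 holds the complex together, and eIF4F loads the capped messenger RNA. Phosphorylation of eIF2 alpha by its kinases blocks the exchange factor eIF2B and lowers initiation, while translation of Atf4 rises, and the 4E-BPs block eIF4E. In elongation, eEF1A brings aminoacyl-tRNAs and eEF2 moves the ribosome along. Messenger RNAs of many elongation factors and of some eIF3 subunits begin with a run of pyrimidines, the 5′ terminal oligopyrimidine (TOP) motif, and are translated under control of mTOR.

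Library totals ranged from 1162178 to 3689792 counts. Most NEG counts, 96.0% to 98.1%, lay in 9 features that each took 0.5% or more of the pooled NEG counts, against 26.7% to 52.7% in KHT and IPT, which left 31318 to 49062 other counts per NEG library, beside 929348 or more per library in KHT and IPT. The family itself was counted 714 to 1481 times per NEG library, 15232 to 32793 times per KHT library and 24346 to 35722 times per IPT library. Values below are normalised CPM, CPM being counts relative to a library size scaled by TMM. A single count is worth 4.09 to 6.69 CPM in NEG, 0.113 to 0.248 in KHT and 0.105 to 0.149 in IPT, so members at a few CPM cannot be resolved in NEG. NEG 5 stood apart, with counts in 49 members against 32, 34 and 37 in NEG 1, 3 and 4, and 10 members had NEG counts in NEG 5 alone. The 11 Leydig markers summed to 366 to 666 CPM in IPT, 364 to 556 in KHT and 8.49 to 404 in NEG. Epithelial markers summed to 0 to 199 CPM in NEG, 3.28 to 31.3 in KHT and 0.845 to 6.39 in IPT, with Epcam, Cdh1 and Krt8 at 0 in NEG. Endothelial markers summed to 28.6 to 157 CPM in NEG, 12.6 to 21.6 in KHT and 12.2 to 27.6 in IPT, with Tek at 0 in KHT and NEG. The part of these markers in the results below was not tested.

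**Figure D1:**
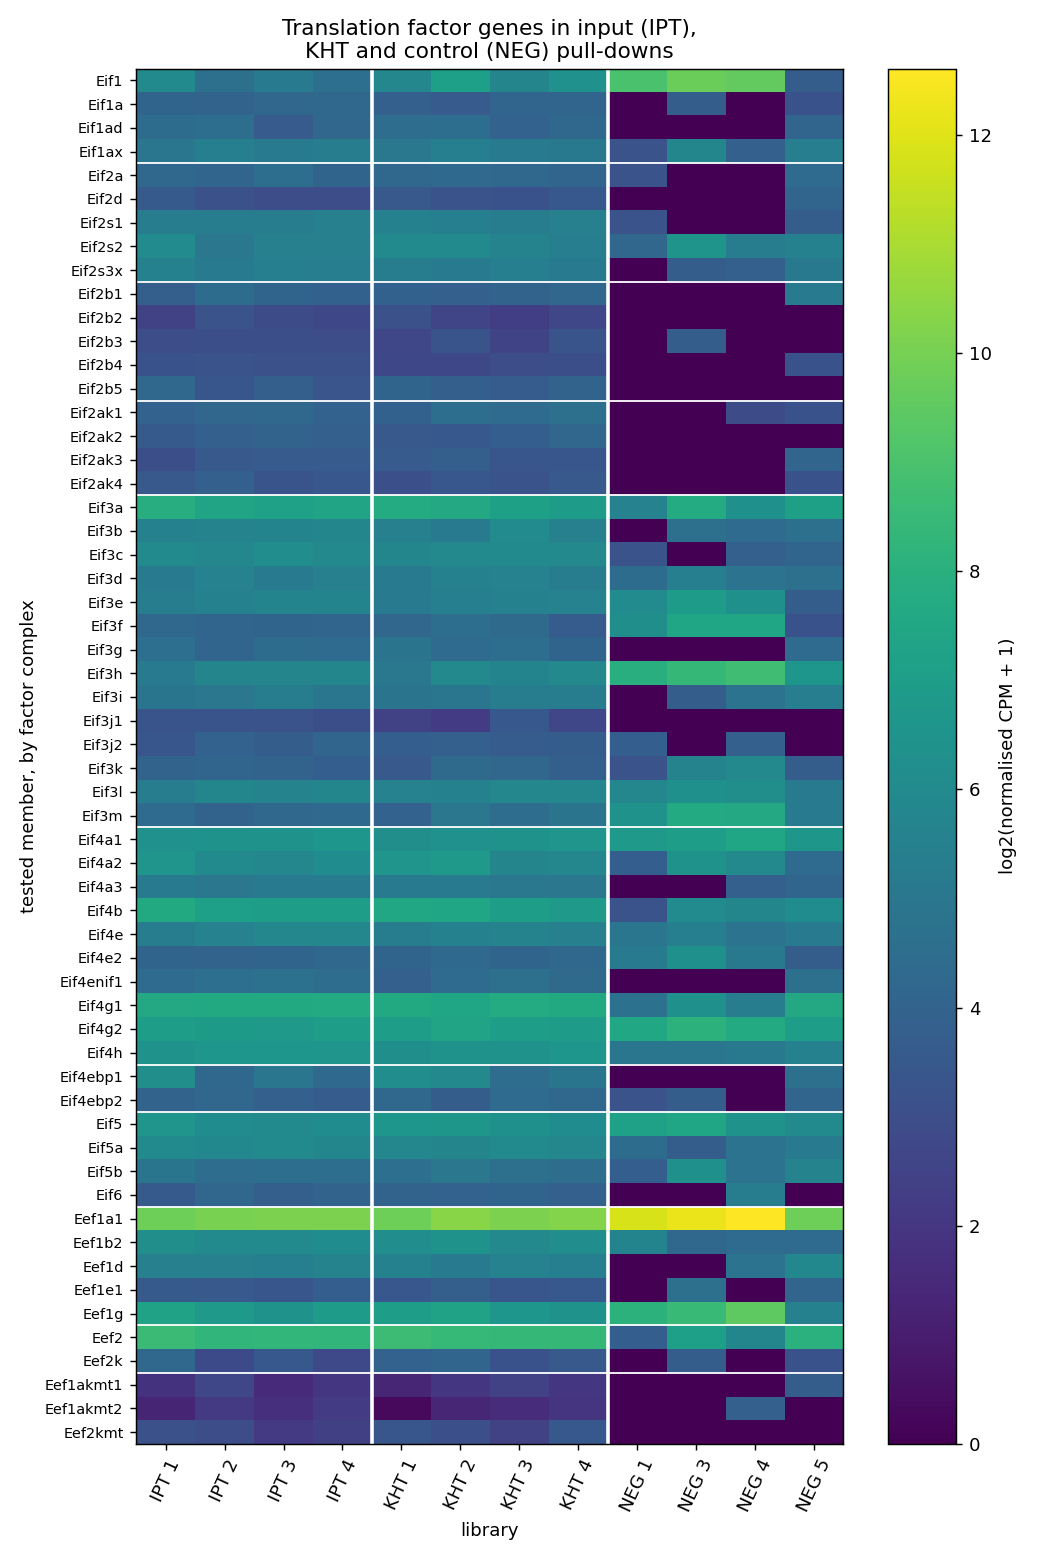
Normalised CPM of the 58 tested translation factor genes in each library (colour, log2 of CPM plus 1, not corrected for length), by factor complex. No gene passed the test between IPT and KHT, while NEG 1, 3 and 4 hold many genes at 0 and NEG 5 fewer.

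The first comparison was of KHT with IPT, the bait's RNA with the RNA that went in. No member passed the test: 0 of 58 tested were higher in KHT and 0 lower by edgeR's quasi-likelihood test at an adjusted p under 0.05. Over all 10714 genes, 0.00933% were higher and 0% lower. At an unadjusted p under 0.05 there were 0 members and 175 genes, and DESeq2 called 0 members with 4 genes higher and 3 lower. The median log2 fold change was 0.01 over the members and 0.01 over all genes, and 56 of 58 members lay within 0.5 and 44 within 0.2. The remaining 6 members did not pass the filter on low counts: Eef1akmt3, Eif1b, Eif2s3y, Eif4ebp3, Eif4g3 and Eif5a2.

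How far a difference was bounded depended on the fit, because the noisy NEG libraries share the estimate of the spread. With all groups in the fit, 32 of 58 members had a 95% interval within 2-fold either way. With KHT and IPT alone, 51 of 59 had an interval within 2-fold and 38 within 1.5-fold. Eif1, whose protein guards start codon selection, gave the largest value. It had 55.8, 139, 53.0 and 82.2 CPM in KHT 1 to 4, and 64.5, 24.4, 34.8 and 23.2 in IPT 1 to 4. KHT 2 was the highest of these libraries, and the groups overlapped through IPT 1. Its log2 fold change was 1.17 (SE 0.85, 95% interval -0.60 to 2.93) and did not pass the test, with an adjusted p of 1.0, nor with the pair of groups alone (adjusted p = 0.997 with edgeR). With that pair its interval was 0.20 to 2.14, and it was the 1 member at an unadjusted p under 0.05 by edgeR. Eef1akmt2, named as a lysine methyltransferase of eEF1A, gave the lowest value, -0.73. Of the 58 tested, 1 had groups that did not overlap. How many of all genes did so was not counted, so this is not read as a result about the members. The member was Eif2b4, the delta subunit of eIF2B. It had 5.65, 5.71, 6.89 and 7.20 CPM in KHT, in ascending order, and 7.74, 7.84, 8.09 and 8.31 in IPT, with a log2 fold change of -0.33 (SE 0.30) and an adjusted p of 1.0.

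The next comparisons set each deep group beside NEG. KHT with NEG and NEG with IPT share the NEG libraries, so their values are given side by side and are not independent. With TMM scaling, 11 of 58 members (19.0%) were higher in KHT against NEG and 5 (8.62%) lower, beside 31.0% and 2.72% of all genes, and with total counts alone 57 (98.3%, beside 97.3% of all genes) were higher and 0 lower. NEG with IPT gave 5 members higher in NEG and 13 lower (8.62% and 22.4%), beside 3.64% and 32.5% of all genes. With DESeq2, 36.7% of all genes were higher in KHT against NEG and 3.67% lower, and NEG with IPT gave 4.35% higher in NEG and 38.9% lower. At an unadjusted p under 0.05, 5233 of 10714 genes passed edgeR's test for KHT with NEG and 5330 for NEG with IPT. The counts by complex given below are to be read beside these shares of all genes. The median log2 fold change of KHT over NEG was 0.97 over members, or 0.90 with members at 0 in NEG set to their bound, and 1.73 over all genes. With total counts alone the median of all genes was 5.66, and the 5 members lower in KHT with TMM scaling had positive values. NEG 5 weighed on these counts. Without it 30 of 60 members were higher in KHT and 9 lower, beside 47.2% and 3.95% of all genes. The median log2 fold change of KHT over NEG was then 6.24 over all genes and 1.73 over members. Values without NEG 5 given below are to be read beside that median of all genes.

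**Figure D2:**
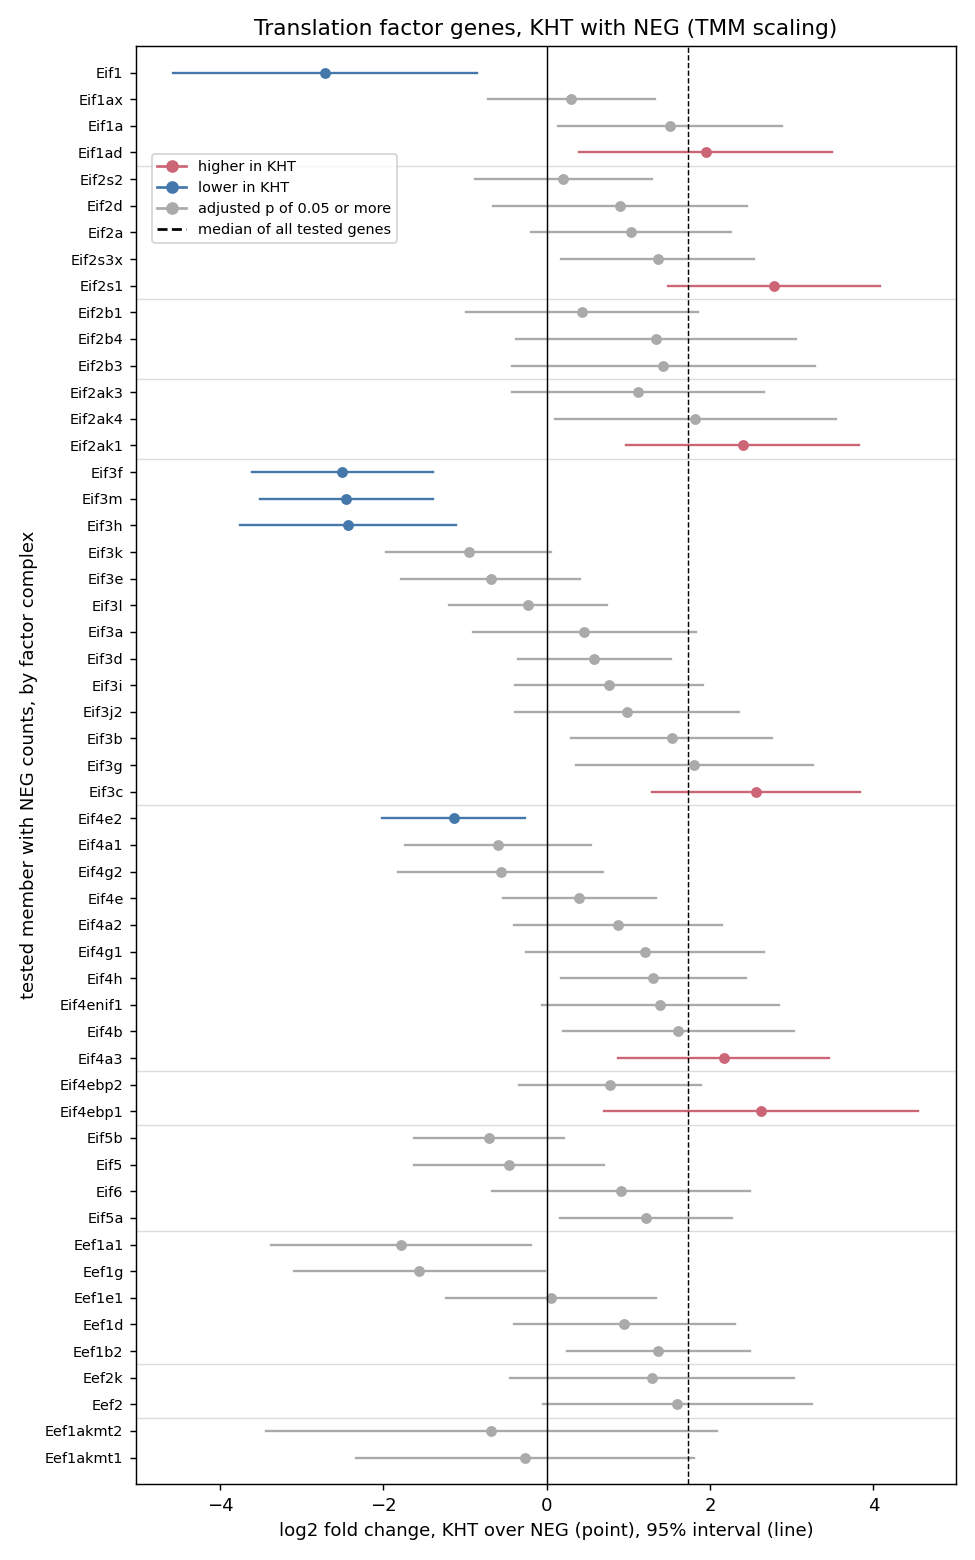
Log2 fold change of KHT over NEG with TMM scaling (points) and its 95% interval (lines) for the 53 tested members with NEG counts, with the median of all genes dashed. Eif1, Eif3f, Eif3h, Eif3m and Eif4e2 lie below 0 and pass the test, and lie above 0 with total counts alone. The 5 tested members at 0 in NEG are not drawn.

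Of the eIF1 and eIF1A genes, 1 of 4 tested was higher in KHT than in NEG and 1 was lower. Eif1 had 505, 886, 763 and 12.2 CPM in NEG 1, 3, 4 and 5, so that it was above every KHT and IPT library in the first 3 and below all of them in NEG 5. Its log2 fold change was -2.71 for KHT over NEG (SE 0.90, adjusted p = 0.0269) and 3.88 for NEG over IPT (SE 0.94, adjusted p = 0.00653), with the near-identical Eif1b able to share its reads. The KHT with NEG call was lost with the pair of groups alone (adjusted p = 0.0685), without NEG 3 (0.0642), without NEG 4 (0.0533), and without KHT 1 (0.0745), KHT 3 (0.0774) or KHT 4 (0.0656). With total counts alone Eif1 was 1.49 higher in KHT on the log2 scale, against the median of 5.66 for all genes. Eif1ad, a gene related to eIF1A, was higher in KHT (log2 fold change 1.95, SE 0.75, adjusted p = 0.0485), and its 4 NEG counts were all in NEG 5. That call held in 6 of 21 alternative settings. Eif1ax, the X-linked eIF1A gene, had a mean of 35.9 ± 4.32 CPM in KHT, against 29.3 ± 21.9 in NEG (± SD of 4 libraries per group) and did not pass (adjusted p = 0.624). Eif1a was lower in NEG than in IPT (log2 fold change -1.69, SE 0.65, adjusted p = 0.0473), a call kept in 7 of 21 alternative settings, while its values in KHT over NEG were 1.51 and an adjusted p of 0.0761. Reads of Eif1a and Eif1ax, which are close copies, may be split between them.

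Among the eIF2 genes, KHT with NEG called 1 of 5 tested, Eif2s1, higher in KHT, and 0 lower. Eif2s1 encodes eIF2 alpha, the subunit that the stress kinases phosphorylate. It had 45.3, 42.0, 39.1 and 43.5 CPM in KHT, 8.49, 0, 0 and 12.2 in NEG and 38.3, 38.2, 38.4 and 43.3 in IPT. Every KHT and IPT library was above every NEG library. The log2 fold change was 2.78 for KHT over NEG (SE 0.62, adjusted p = 0.00516) and -2.68 for NEG over IPT (SE 0.63, adjusted p = 0.00531), and both calls held in all 21 alternative settings. Eif2s2, the beta subunit, had 54.2 ± 11.7 CPM in KHT, 48.1 ± 30.7 in NEG and 46.1 ± 14.2 in IPT (± SD of 4 libraries per group), and neither comparison with NEG passed (adjusted p = 0.763 and 0.964). The Y-linked gamma subunit gene Eif2s3y, too low to be tested, had no count in KHT, 2 in IPT 1 and 3 in NEG. Because 1 count weighs more in NEG, its mean there was 4.41 CPM, from NEG 1 and NEG 4, beside 0.053 in IPT. Its X-linked copy Eif2s3x could take its reads.

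The exchange factor and the kinases that oppose it were thinly counted in NEG. Of 5 eIF2B genes, 2 were higher in KHT and 0 lower, both of them at 0 in all NEG libraries. Eif2b5, the catalytic epsilon subunit, had 15.9, 13.2, 11.6 and 14.9 CPM in KHT and 17.6, 9.30, 13.2 and 9.10 in IPT. With the NEG group taken at 3 counts in all, its level was at least 3.65-fold higher in KHT (adjusted p = 0.00572) and at least 3.30-fold higher in IPT (adjusted p = 0.00639). Eif2b2, the beta subunit, was at least 1.49-fold higher in KHT (adjusted p = 0.0239) and at least 1.60-fold higher in IPT (adjusted p = 0.0192). Such bounds, and the counting intervals given below, speak for counting error alone. Whether both mates of a read pair were counted was not settled, and if they were, the bounds are too high and the intervals too narrow. The lowest bounds, such as those of Eif2b2, would then no longer show a higher level. The calls of Eif2b2 were kept in 17 (KHT with NEG) and 18 (NEG with IPT) of 20 alternative settings. Eif2b1, the alpha subunit, had 36.8 CPM in NEG 5 and 0 in the other NEG libraries, beside 13.7 to 16.6 in KHT, and did not pass (adjusted p = 0.612), but did without NEG 5 (adjusted p = 0.00148).

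Of 4 eIF2 alpha kinase genes, 2 rose from NEG to KHT and 3 were lower in NEG than in IPT. Eif2ak2 (PKR, activated by double-stranded RNA) had 10.4, 10.3, 12.6 and 16.6 CPM in KHT, 0 in each NEG library and 11.0, 13.7, 15.0 and 13.4 in IPT. This put it at least 3.23-fold higher in KHT (adjusted p = 0.00559) and at least 3.47-fold higher in IPT (adjusted p = 0.00443). Eif2ak1 (HRI, inhibited by haem) had 477 counts in KHT and 3 in NEG, a ratio of 5.09 with an exact binomial counting interval of 1.73 to 24.7 (log2 fold change 2.40, SE 0.69, adjusted p = 0.0147). Its NEG with IPT call was kept in 16 of 21 alternative settings. Eif2ak4 (GCN2, the sensor of uncharged tRNA) was lower in NEG than in IPT with a ratio of IPT to NEG of 4.20 (interval 1.15 to 34.8, adjusted p = 0.0483). That call was kept in 5 of 20 alternative settings.

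The scaffold eIF3 gave calls in both directions with TMM scaling: 2 of 14 genes, Eif3c and Eif3j1, were higher in KHT against NEG, and 3 (Eif3f, Eif3h and Eif3m) were lower, which turned to higher with total counts alone. NEG with IPT also gave 3 higher and 3 lower, with Eif3b joining Eif3c and Eif3j1 among the lower. Eif3f, Eif3h and Eif3m sit together in 1 module of the complex and are the genes described next.

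Eif3f had 76.4, 169, 167 and 8.17 CPM in NEG 1, 3, 4 and 5, beside 17.2, 22.6, 19.5 and 11.7 in KHT and 18.4, 16.1, 15.5 and 16.5 in IPT. NEG 5 was the lowest library of all and the other NEG libraries the highest, so the groups overlapped. The log2 fold change was -2.51 for KHT over NEG (SE 0.53, adjusted p = 0.0042) and 2.60 for NEG over IPT (SE 0.53, adjusted p = 0.00326). Eif3h had 242, 338, 428 and 98.0 CPM in NEG, against 32.4, 59.8, 50.9 and 61.1 in KHT and 35.5, 52.6, 52.0 and 54.6 in IPT. Here each NEG library, NEG 5 included, was above each KHT and IPT library. Its log2 fold change for KHT over NEG was -2.43 (SE 0.64, adjusted p = 0.0101), lost with the pair of groups alone (adjusted p = 0.0772). Eif3m had 89.1, 211, 194 and 36.8 CPM in NEG, 14.6, 30.6, 21.8 and 28.1 in KHT and 20.6, 14.9, 18.0 and 18.6 in IPT, again with no overlap. Its log2 fold change was -2.45 for KHT over NEG (SE 0.51, adjusted p = 0.00392) and 2.85 for NEG over IPT (SE 0.52, adjusted p = 0.00171). With total counts alone these 3 genes were 1.71, 1.72 and 1.68 higher in KHT on the log2 scale, in the order named. In edgeR with each scaling run, and in DESeq2, they lay below the median of all genes for KHT with NEG.

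Eif3c, a core subunit, moved the other way. It had 53.7, 59.4, 61.9 and 59.9 CPM in KHT, 8.49, 0, 13.4 and 16.3 in NEG and 63.5, 56.6, 72.4 and 60.7 in IPT, with NEG below the rest. Its log2 fold change was 2.56 for KHT over NEG (SE 0.61, adjusted p = 0.00678) and -2.67 for NEG over IPT (SE 0.61, adjusted p = 0.00505). Eif3j1, a loosely bound subunit with a near-identical copy in Eif3j2, had no NEG count and was at least 1.71-fold higher in KHT (adjusted p = 0.0277) and at least 2.15-fold higher in IPT (adjusted p = 0.0146). The KHT with NEG call of Eif3j1 was kept in 17 of 20 alternative settings. Eif3a, the largest subunit, had 167 ± 42.6 CPM in KHT, 122 ± 75.0 in NEG and 175 ± 36.9 in IPT (± SD of 4 libraries per group) and did not pass (adjusted p = 0.575 for KHT with NEG). Eif3b, another core subunit, was lower in NEG than in IPT (log2 fold change -1.58, SE 0.59, adjusted p = 0.0432), a call kept in 7 of 21 alternative settings, and was at an adjusted p of 0.0504 for KHT with NEG.

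Shares within eIF3 do not depend on the scaling. Eif3h made up 38.5%, 26.8%, 36.2% and 20.7% of eIF3 counts in NEG 1, 3, 4 and 5, against 8.65% ± 2.29 in KHT and 8.19% ± 1.60 in IPT (± SD of 4 libraries per group). Eif3m made up 13.8% ± 4.16 in NEG, 4.02% ± 1.20 in KHT and 3.03% ± 0.338 in IPT. Both were higher in each NEG library than in any KHT or IPT library. Eif3f made up 12.2%, 13.4%, 14.1% and 1.72% in NEG, so NEG 5 fell under the 2.10% to 3.65% of KHT. Eif3c took 0% to 3.45% in NEG, 9.32% to 10.8% in KHT and 9.69% to 12.4% in IPT.

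**Figure D3:**
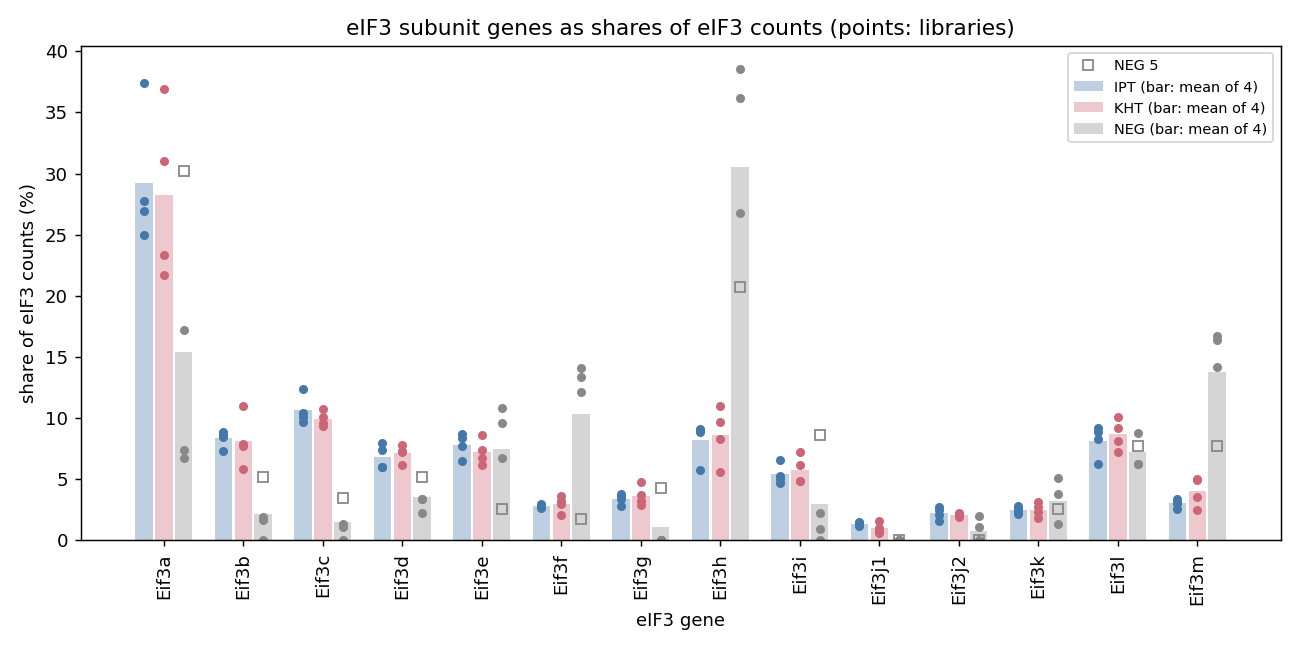
Share of eIF3 counts held by each eIF3 gene (bars, mean of 4 libraries; points, libraries; open squares, NEG 5). Eif3h and Eif3m take larger shares in each NEG library than in any KHT or IPT library, and Eif3c smaller ones, while for Eif3f NEG 5 lies just under KHT and IPT.

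In eIF4F and its helpers 1 of 10 tested genes was higher in KHT than in NEG and 1 was lower. Eif4a3, a helicase of the exon junction complex named after the eIF4A family, had 35.7, 37.0, 31.8 and 30.8 CPM in KHT, 0, 0, 13.4 and 16.3 in NEG and 35.8, 30.6, 34.0 and 34.0 in IPT. All NEG libraries were lower than the others (log2 fold change 2.17 for KHT over NEG, SE 0.62, adjusted p = 0.0149), and the call was lost with the pair of groups alone (adjusted p = 0.0588). Eif4e2 (4EHP), a cap-binding relative of eIF4E that represses translation, had 34.0, 78.4, 33.5 and 12.2 CPM in NEG, beside 15.5 to 18.9 in KHT and 15.1 to 17.5 in IPT. It was lower in KHT with TMM scaling (log2 fold change -1.14, SE 0.42, adjusted p = 0.0427) and higher with total counts alone (2.94), and the call was kept in 6 of 21 alternative settings.

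The eIF4F subunits described next did not pass edgeR's test for KHT with NEG. DESeq2 called Eif4g1 higher in KHT (log2 fold change 1.24, adjusted p = 0.0366) and Eif4a1 lower (-0.49, adjusted p = 0.0436), the latter higher in edgeR with total counts alone (3.50). Eif4e, the cap-binding protein, had 44.7 ± 3.66 CPM in KHT, 33.9 ± 6.97 in NEG and 50.0 ± 7.97 in IPT (± SD of 4 libraries per group; adjusted p = 0.472 for KHT with NEG). Eif4a1, the helicase, had 84.3 ± 8.96 in KHT, 128 ± 32.2 in NEG and 87.8 ± 6.70 in IPT (adjusted p = 0.373), with reads that Eif4a2 and a pseudogene may share. Eif4g1, the scaffold, had 25.5, 78.4, 40.2 and 196 CPM in NEG 1, 3, 4 and 5, beside 168 to 217 in KHT. Its adjusted p was 0.169, and 0.00244 without NEG 5, where its log2 fold change was 2.12, beside a median of 6.24 over all genes. Eif4h, a helper of eIF4A, was lower in NEG than in IPT (log2 fold change -1.43, SE 0.55, adjusted p = 0.0463), with 29.7 to 44.9 CPM in NEG and 84.9 to 98.9 in IPT, a call kept in 7 of 21 alternative settings.

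Among the 4E-BPs, 1 of 2 tested was higher in KHT than in NEG. Eif4ebp1, the repressor that mTOR releases from eIF4E, had 71.7, 59.6, 21.3 and 28.8 CPM in KHT, 0, 0, 0 and 24.5 in NEG and 75.1, 18.2, 29.6 and 18.7 in IPT. The groups overlapped through NEG 5 (log2 fold change 2.63, SE 0.92, adjusted p = 0.0363), and the call was kept in 13 of 21 alternative settings. Of eIF5, eIF5A, eIF5B and eIF6, 0 of 4 genes passed edgeR's test in either comparison with NEG, with 1 at an unadjusted p under 0.05 and 1, Eif5a, called by DESeq2. Eif5a, the hypusine-bearing factor that relieves stalled ribosomes, had 57.2 ± 4.17 CPM in KHT, 24.2 ± 10.3 in NEG and 60.1 ± 4.09 in IPT (± SD of 4 libraries per group), with an adjusted p of 0.0658 for KHT with NEG and 0.00299 without NEG 5.

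The elongation factors gave no call by edgeR. In either comparison with NEG, 0 of 5 eEF1 genes and 0 of 2 eEF2 genes passed its test, with 3 and 0 at an unadjusted p under 0.05. For KHT with NEG, DESeq2 called 2 eEF1 genes higher in KHT (Eef1b2 and Eef1d), 2 lower (Eef1a1 and Eef1g), and Eef2 higher. It called the same genes in the other direction for NEG with IPT. Eef1a1, the eEF1A gene of most cells, had 897, 1337, 1103 and 1238 CPM in KHT, 3730, 4896, 6239 and 899 in NEG 1, 3, 4 and 5, and 907, 1068, 1110 and 1100 in IPT. NEG 5 sat with KHT and IPT and the other NEG libraries far above them, and copies of Eef1a1 in the genome can share its reads. The log2 fold change was 1.91 for NEG over IPT (SE 0.77, adjusted p = 0.0552), and for KHT over NEG without NEG 5 it was -2.06 (adjusted p = 0.00513). Eef1g, the gamma subunit of the exchange factor, had 276, 374, 703 and 44.9 CPM in NEG and 88.7 to 151 in KHT (adjusted p = 0.0985, and 0.00375 without NEG 5). Eef2, the translocase, went the other way, with 12.7, 139, 53.5 and 261 CPM in NEG against 394, 352, 337 and 337 in KHT and 380, 316, 322 and 310 in IPT. Its groups did not overlap, with an adjusted p of 0.111 for KHT with NEG and 0.00578 without NEG 5. With all libraries DESeq2 called Eef1a1 (adjusted p = 0.00211), Eef1g (0.0299) and Eef2 (0.018) for KHT with NEG. Of the methyltransferases 1 of 3 tested, Eef2kmt, named as a lysine methyltransferase of eEF2, was at 0 in NEG and at least 1.96-fold higher in KHT (adjusted p = 0.0214). That call was kept in 18 of 20 alternative settings.

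The eEF1 genes held 69.1%, 60.0%, 70.5% and 35.6% of the family's counts in NEG 1, 3, 4 and 5, against 35.8% ± 3.20 in KHT and 35.1% ± 2.58 in IPT (± SD of 4 libraries per group). Most of this was Eef1a1, with 63.5%, 55.3%, 62.9% and 30.8% in NEG, and Eef1g was also above KHT and IPT in NEG 1, 3 and 4. Eef1b2 went the other way, with 0.20% to 0.87% in NEG, 1.6% to 2.0% in KHT and 1.7% to 2.0% in IPT. The eIF4F group held 7.37%, 8.86%, 6.48% and 22.3% in NEG, 21.9% ± 1.12 in KHT and 23.1% ± 0.494 in IPT, and the eEF2 group 0.217%, 1.70%, 0.540% and 9.24%, beside 9.54% ± 1.06 and 9.30% ± 0.801. For each of these factor groups, NEG 5 lay within the range of KHT while NEG 1, 3 and 4 did not. The eIF3 share was 13.3% ± 2.46 in NEG, 15.3% ± 0.945 in KHT and 16.2% ± 0.142 in IPT. Of all counts outside the 9 dominant features, the family held 4.42%, 3.74%, 4.28% and 1.46% in NEG, 1.65% ± 0.0966 in KHT and 1.58% ± 0.0318 in IPT.

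**Figure D4:**
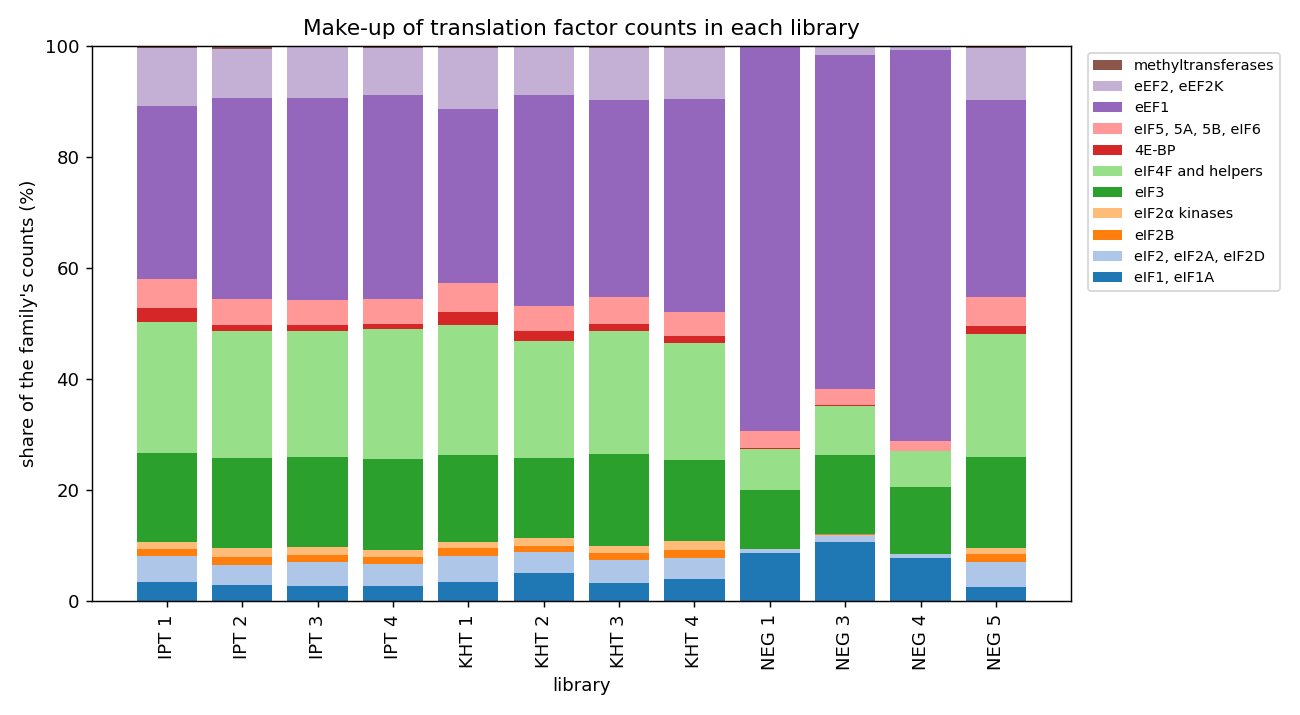
Share of the family's counts held by each factor complex in each library, stacked to 100%. The eEF1 genes, mostly Eef1a1, hold 60.0% to 70.5% in NEG 1, 3 and 4, and 35.6% in NEG 5, near the KHT and IPT libraries.

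A list of 14 members whose messenger RNAs are reported to carry a TOP motif, taken from background knowledge, was set beside the other members. For KHT with NEG it gave 0 higher and 3 lower of 14, with a median log2 fold change of -0.46, and the other 44 tested members gave 11 higher and 2 lower, with a median of 1.16 (0.98 with bounds), beside 31.0% higher and 2.72% lower over all genes. The median of all genes was 1.73 with TMM scaling, and no member was lower with total counts alone. For NEG with IPT the list gave 3 higher and 0 lower, median 0.43, and the others 2 and 13, median -1.06, beside 3.64% higher and 32.5% lower over all genes. The 3 called members are Eif3f, Eif3h and Eif3m. Of the 14, 6 had positive log2 fold changes for KHT over NEG, Eef2 among them, and 8 had negative ones. DESeq2 called 6 of the 14 higher in KHT and 6 lower, beside 36.7% and 3.67% of all genes.

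The annotated starts of these genes show which begin with such a run. The first 20 bases of RNA at RefSeq starts (GRCm38.p6) are shown for 7 genes described above and for Eif2s3x, which holds the motif searched for, with the pyrimidine run that begins at base 1 in capitals:
Eif3f: CTCTCTTTCTCggcaagatg
Eif2s3x: CTTTTCTCTCCgagcaagat
Eef1a1: TTCCCgagggtgggggagaa
Eif3m: gtttctggatcggagcgtct
Eef2: gttgacgtcagcggtctctt
Eif1: gggcggctatataagtgaat
Eif2s1: agcgcacgctgaggagcttc
Eif3c: ggactcggcagcttagctgg
They lie at chr7:108934415-108934434 on the plus strand for Eif3f, chrX:94212632-94212651 on the minus strand for Eif2s3x, chr9:78481705-78481724 on the minus strand for Eef1a1 and chr2:105017008-105017027 on the minus strand for Eif3m. Eef2 is at chr10:81176631-81176650 and Eif1 at chr11:100319949-100319968, both on the plus strand. Eif2s1 is at chr12:78862072-78862091 on the plus strand and Eif3c at chr7:126566347-126566366 on the minus strand. Only the gene's own strand was read. Searched for was a C at base 1 followed by at least 4 more pyrimidines. It was found at 3.08% of 65 starts of 50 members, and at 2.51% of 32851 starts of all genes. Of 10 TOP-list members with a start in the table, Eif3f and Eif2s3x had it, and Eef1d, Eef1g, Eif3e and Eif3h had no start there. Eif2s3x had 35.5 to 42.3 CPM in KHT and 0 to 32.7 in NEG and did not pass edgeR's test (adjusted p = 0.0682 for KHT with NEG). Eef1a1 begins with 5 pyrimidines, the first of them a T. An annotated start need not be the base at which RNA begins in MA-10 cells, so the letters describe the annotation.

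Members varied little within KHT and IPT. Over members with a mean of at least 5 CPM, the median coefficient of variation was 16.5% in KHT, 13.6% in IPT and 74.9% in NEG, beside 20.5%, 18.0% and 120% over all genes. Eif2a was the steadiest in KHT (5.95%) and Eif2b3 in IPT (2.63%). The most variable member was Eif4ebp1, a target of Atf4, with 53.2% in KHT and 76.2% in IPT. KHT 1, KHT 2 and IPT 1 were its 3 highest libraries. These libraries were also the highest for Eef2k, the kinase that inhibits eEF2, with 14.6, 16.4, 8.02 and 10.4 CPM in KHT and 17.8, 6.06, 9.98 and 5.86 in IPT. Eif5, the GTPase activator of eIF2, had 96.1, 101, 78.1 and 69.3 CPM in KHT and 93.4, 69.0, 65.2 and 68.8 in IPT, with the same 3 libraries at the top. Atf4, which is no member, had 192, 164, 95.3 and 110 CPM in KHT and 182, 98.2, 102 and 95.3 in IPT. Among KHT and IPT, the same 3 libraries were also the highest for Eif3a, Eif4b, Eif4a2, Eif2s2 and Eef1g. Over 7797 genes, the deviations of KHT 2 and IPT 1 from their group means correlated at 0.607. This order of libraries was thus not particular to Eif4ebp1, Eef2k, Eif5 and Atf4. Within KHT and within IPT these differences between libraries are as large as or larger than those between the groups, for which none of these members passed. All libraries hold bulk RNA, so a share of cells that differs and a level per cell that differs cannot be told apart.

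**Figure D5:**
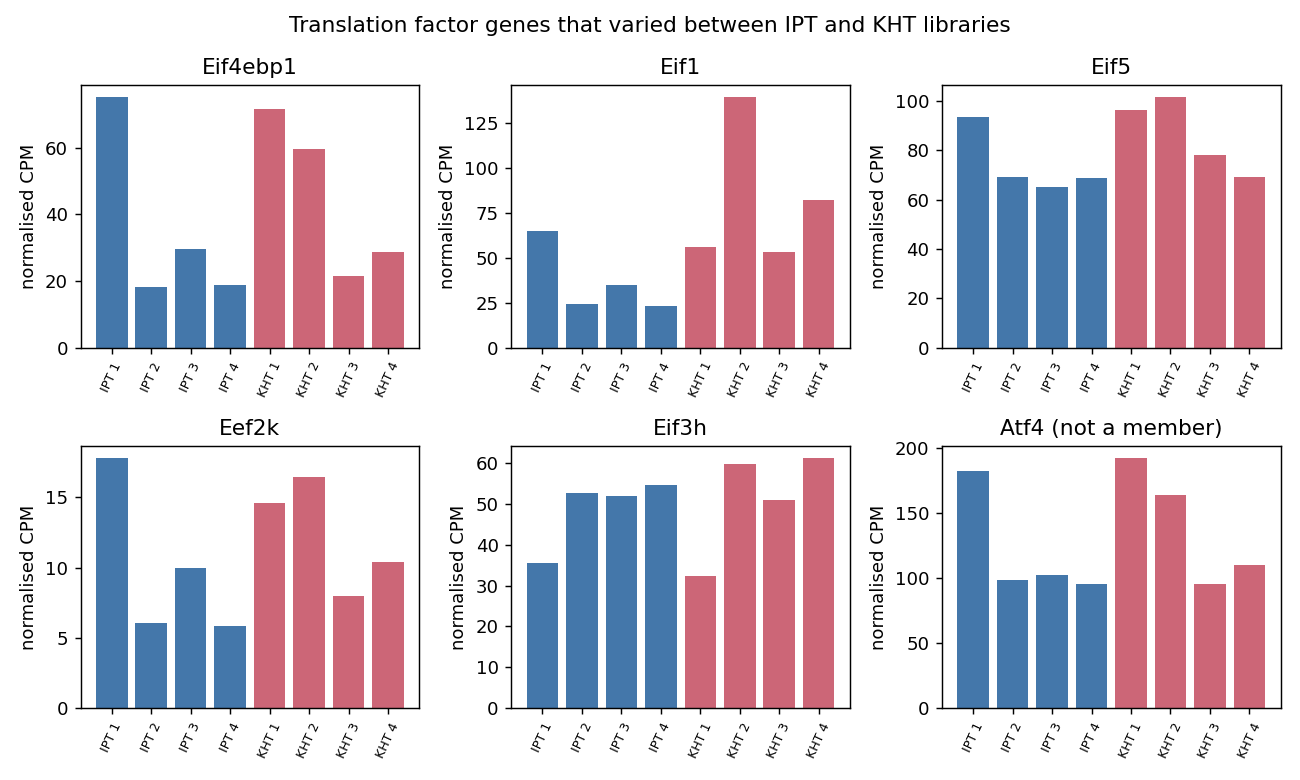
Normalised CPM in each IPT (blue) and KHT (red) library for 5 members and for Atf4. IPT 1, KHT 1 and KHT 2 are the highest libraries for Eif4ebp1, Eif5, Eef2k and Atf4, and also for members not drawn here. IPT 1 and KHT 1 are the lowest for Eif3h.

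Other genes of translation, from lists outside the name rule, gave the same counts for KHT with IPT: 0 of 33 translation control genes and 0 of 9 mitochondrial translation factors passed in either direction by edgeR, with 0 and 0 at an unadjusted p under 0.05 and 0 and 0 called by DESeq2. For KHT with NEG, 11 of 33 translation control genes were higher and 2 lower, with a median log2 fold change of 1.43 (1.13 with bounds), beside 31.0% and 2.72% of all genes. Mtor, the kinase that governs TOP messenger RNAs and the 4E-BPs, had 45.1 ± 5.79 CPM in KHT and 45.0 ± 1.83 in IPT (± SD of 4 libraries per group) and 1 count in NEG (adjusted p = 0.00116). Mcts1, a partner of Denr in ribosome recycling, was lower in KHT than in NEG with TMM scaling (log2 fold change -2.32, SE 0.48, adjusted p = 0.00392), from 17 NEG counts. Of the mitochondrial factors, 3 of 9 (Tsfm, Mrrf and Mtif3) were higher in KHT and 0 lower. The share called higher in either list was near that of all genes.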

How the data were processed

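The authors deposited estimated counts per gene for 13 libraries, all whole numbers and unscaled. Builds GRCm38 and mm10 and the tools kallisto and DESeq2 are named per the submitters' processing notes; their roles, versions and any filters are not given in the sources used here. Symbols matched 27004 of 27071 identifiers. The 12 libraries with counts entered 1 fit of 3 groups with edgeR 4.0.16 (R 4.3.3): TMM scaling, filterByExpr, glmQLFit with robust estimation and glmQLFTest, two-sided, Benjamini-Hochberg over 10714 genes, threshold 0.05. DESeq2 1.42.0 was an alternative. The fit was tested on simulated data, with means taken from KHT and IPT and 1 spread for all groups. Those settings are unlike the NEG libraries, so the simulation does not show how the fit performs for comparisons with NEG. Groups came from titles, which match the treatment field; the description of the KHT samples speaks of negative controls, and the molecule field names polyA RNA although the kit depletes ribosomal RNA. Total counts were 1162178 to 3689792. Genes at 0 in NEG were set against 3 counts over the group; with 1 to 3 counts, an exact 95% binomial interval was used.

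Named were members past the threshold with groups that did not overlap and a mean of at least 5 CPM, the member highest in IPT of each complex, and a set of core factors. Eif1, Eif1a, Eif1ad, Eif2b2, Eif3b, Eif3j1, Eif4e2 and Eif4h, called but outside this rule, and Eef1g, Eef2k, Eef1akmt2, Eif2a, Eif2b3, Eif2b4, Eif2s3x, Eif2s3y and Eif4ebp3 were named after their values were seen, as were members named for 1 library far from the rest. Eef1b2, Eef1d, Eif4a2 and Eif4b were also named after their values were seen. Members and lists were chosen with earlier results of these data known. Alternatives covered scaling, tool, filter, samples in the fit, replicate block, halved counts and each library left out. Transcript lengths were not used, so levels are not compared between genes.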

Additional observations from a re-analysis of the deposited data

Results flagged for a closer look

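Each of the 58 tested members was examined in each group in which it had counts, 169 sets of 4 libraries in all. In 18 of them 1 library stood far from the other 3, 14 in NEG, 4 in IPT and 0 in KHT. For normally spread values chance gives such a gap in about 1 of 20 sets. A set with counts in 1 library alone is always flagged, so that rate does not hold for the NEG sets.

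In NEG, 10 members had counts in NEG 5 alone. These were Eef1akmt1 at 12.3 CPM (3 counts), Eif1ad, Eif2ak3 and Eif2d at 16.3 (4 counts each), Eif2ak4 and Eif2b4 at 8.17 (2 counts each), Eif2b1 at 36.8 (9 counts), Eif3g at 20.4 (5 counts), and Eif4ebp1 and Eif4enif1 at 24.5 (6 counts each). Eef1akmt2 was at 13.4 CPM (2 counts) and Eif6 at 40.2 (6 counts) in NEG 4 alone, and Eif2b3 at 12.1 (2 counts) in NEG 3 alone. Eef1b2, a subunit of the eEF1A exchange factor, was at 50.9 CPM in NEG 1 (12 counts) and at 18.1 to 20.4 in the other NEG libraries.

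In IPT, Eif2s1 was at 43.3 CPM in IPT 4 and at 38.2 to 38.4 in the others. The other 3 cases were in IPT 1. Eif3h was at 35.5 CPM there and at 52.0 to 54.6 in the others, Eif4b, a helper of eIF4A, at 201 against 131 to 137, and Eif5 at 93.4 against 65.2 to 69.0.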

How the results depend on the processing

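For KHT with IPT, 0 members were called under every alternative run. For KHT with NEG, the 11 higher and 5 lower members became 57 and 0 with total counts alone, 23 and 9 with DESeq2, 4 higher with a filter at a mean of 10 CPM and 2 lower with the pair of groups alone; leaving out each library in turn gave 8 to 30 higher and 3 to 9 lower, with NEG 5 giving 30 and 9. For NEG with IPT, the 5 higher and 13 lower became 0 and 57 with total counts alone, 8 and 24 with DESeq2, 3 lower with that filter, 7 lower with counts outside the dominant features as library size and 8 lower with the pair of groups alone; leaving out each library gave 4 to 9 higher and 9 to 29 lower. Of all genes, DESeq2 called 36.7% higher and 3.67% lower for KHT with NEG, and 4.35% higher and 38.9% lower for NEG with IPT. The stricter filter and the pair of groups test fewer genes or samples, and otherwise the cause was not tested. Deviations of KHT and IPT libraries with the same number correlated at 0.136, -0.442, 0.236 and 0.129, so no clear pairing by number was seen. Between unlike numbers they ran from -0.554 (KHT 3 with IPT 1) to 0.607 (KHT 2 with IPT 1), with 0.404 for KHT 4 with IPT 3. The main fit used no pairing. Whether the numbers pair the samples was not settled. With the replicate block, in which NEG 5 had a number of its own, 27 members were higher and 9 lower for KHT with NEG, and 9 higher and 28 lower for NEG with IPT. All reversals came with total counts alone, whose construction shifts the median of all genes. For KHT over NEG the log2 fold changes became 2.42 for Eef1a1, 2.76 for Eef1g, 1.49 for Eif1, 1.71 for Eif3f, 1.72 for Eif3h, 1.68 for Eif3m, 3.50 for Eif4a1, 2.94 for Eif4e2 and 3.64 for Eif5. For NEG over IPT they became -2.57 for Eef1a1, -2.99 for Eef1g, -0.63 for Eif1, -4.28 for Eif2s2, -1.86 for Eif3f, -1.95 for Eif3h, -1.60 for Eif3m, -3.83 for Eif4a1, -3.10 for Eif4e2 and -3.66 for Eif5. Over the named members and all alternatives, 1812 results kept their side of the threshold, 134 lost a call, 93 gained one and 19 reversed. The 1812 include 55 in which the estimate crossed 0 with no call in either fit. Depth in NEG limits each comparison with it.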

Other observations

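Eif4a-ps4, left out by name as a pseudogene of the eIF4A family, had 31.6 to 49.5 CPM in KHT, 39.5 to 60.5 in IPT and 0 in each NEG library, which allows up to 3 counts over the group. Eif4ebp3, too low to be tested, had 9 counts in KHT, 6 of them in KHT 3 and 3 in KHT 1, and 0 in NEG and IPT.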
